A study of Homo sapiens with 10 samples.

Results

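The array of day 12 was compared with the arrays of days 5, 6 and 8 in MCF10A cells treated with TGFβ, over all 23786 genes measured, to ask which transcripts lay apart on the last day of the time course from the late levels before it. The comparison took 4 of the 10 arrays of the series, and day 12 was judged against the spread of the 3 arrays of days 5, 6 and 8. MCF10A is a human mammary epithelial cell line that is immortal but does not form tumours. The cells received TGFβ at 10 ng/mL in complete medium for 5, 6, 8 or 12 days, and 1 array of untreated cells and 5 arrays of 4 h to 4 days served only to place the levels. The methods state that treatments were staggered, that all plates were harvested together and that serum was removed before harvest, so that all groups shared these steps. Each time had 1 array and no replicate. The methods speak of 3 biological replicates, and the labels do not say whether cultures were pooled for an array.

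TGFβ binds a pair of receptor kinases that activate SMAD transcription factors. In mammary epithelium it arrests growth and drives epithelial to mesenchymal transition (EMT), in which cells lose junctions and keratins and make matrix, proteases and contractile fibres. TGFβ also engages SMAD-independent pathways, among them MAPK signalling. On the arrays, 14 of 15 epithelial and basal markers lay above the median gene at day 12 and at days 5 to 8 alike, with KRT17 below it, and so did 7 of 8 mesenchymal markers. Of 12 markers of other cells 2 did, CD68 at 7.20 and RGS5 at 3.87, while the leukocyte marker PTPRC (0.95) and the endothelial marker PECAM1 (1.46) were among the 10 below it. None of these 35 markers differed by 1 log2 and lay beyond the spread, and the array medians lay between 2.92 and 2.98.

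Each gene was read by a test and by a count. In limma, a gene was called when its difference reached 1 on the log2 scale with an adjusted p (Benjamini-Hochberg) no larger than 0.05. A gene was counted as beyond the spread when the difference reached 1 and day 12 lay further from the nearest of the 3 earlier arrays than those arrays lay from each other.

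ANGPTL4, a secreted inhibitor of lipoprotein lipase, rose at day 12. Its log2 value was 4.29 at day 5, 4.40 at day 6, 4.36 at day 8 and 7.01 at day 12, against 4.11 in untreated cells. The difference was 2.67 (95% confidence interval 2.30 to 3.03, adjusted p = 0.0169 in limma), or 6.34-fold. It was the only gene called higher (0.0042% of those tested), and 0 genes were called lower (0%), where the lowest adjusted p was 0.0534. At an unadjusted p of at most 0.05 in limma, 1371 genes were higher and 1225 lower. Those unadjusted counts take no account of the number of genes tested, so they are not counts of changed genes. The count called depended on the arrays and on the error model. Without day 6 or without day 8 limma called 0 genes, with an adjusted p for ANGPTL4 of 0.194 and 0.105. Without day 5 it called 45 higher and 47 lower, and with a trended and robust prior 39 and 55. The single day 12 array was assumed to vary like the others, and the spread of days 5, 6 and 8 held change over time as well as array noise. An exact permutation test over 4 arrays cannot go below p = 0.25.

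Beyond the spread of days 5 to 8 lay 205 genes, 100 higher (0.42% of all genes) and 105 lower (0.441%). These are given below as values, since apart from ANGPTL4 they did not pass the test. The limit left out MARS1 at 0.99 and took in SPRED1 at 1.01 and KRT10 at -1.01. It also left out genes whose earlier arrays lay wide apart, such as IFIT1 at -1.15 (2.65, 4.18 and 3.75, then 2.38).

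**Figure D1:**
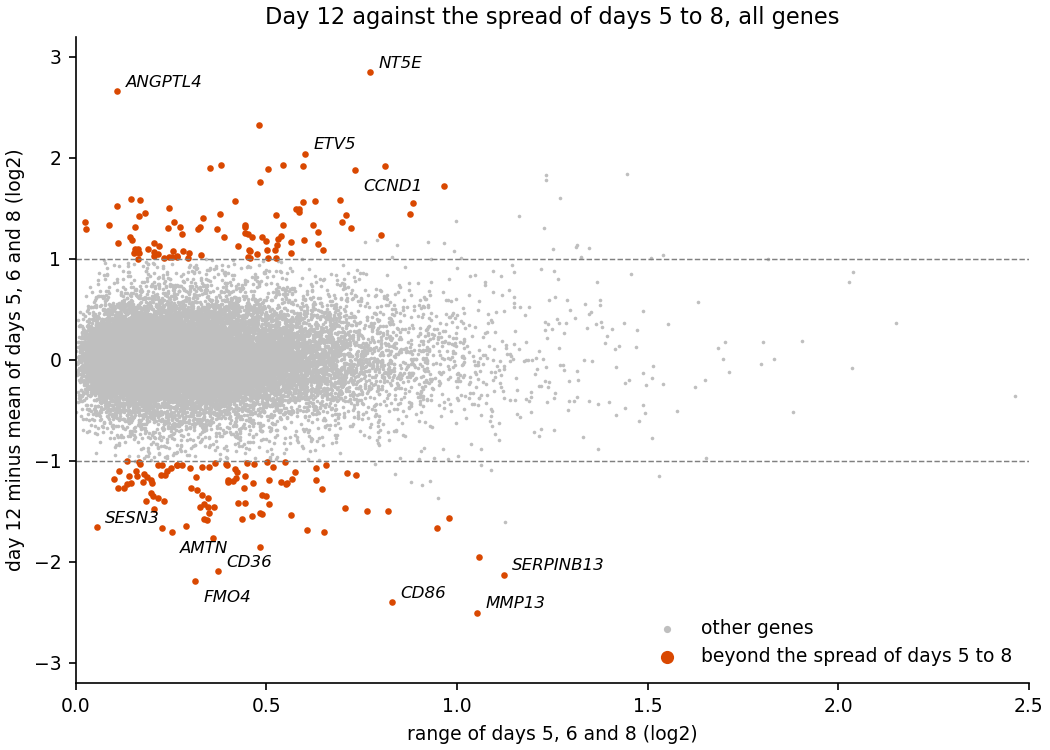
Each point is 1 of 23786 genes, with the range of its 3 values at days 5, 6 and 8 on the x axis and day 12 minus their mean on the y axis, both in log2 units. Orange points are the 205 genes beyond the spread, dashed lines mark differences of 1 and -1, and ANGPTL4 combines a difference of 2.67 with a narrow range.

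The arrays of days 5, 6 and 8 resembled each other more than any of them resembled day 12. Between days 5 and 6, 59 genes were higher and 64 lower by at least 1 log2, between days 6 and 8 51 and 66, and between days 5 and 8 47 and 74. From day 8 to day 12 the counts were 147 and 139. Against day 5 they were 169 and 181, and against day 6 227 and 198. Across genes, which are not independent replicates, Pearson's r was 0.9917 to 0.992 among the 3 earlier arrays and 0.9864 to 0.9887 between them and day 12. The median absolute difference was 0.154 to 0.165 among the earlier arrays and 0.182 to 0.197 with day 12. The step of 4 days to day 12 was longer than the others, and with 1 array at day 12 its length and that array's own noise cannot be told apart.

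**Figure D2:**
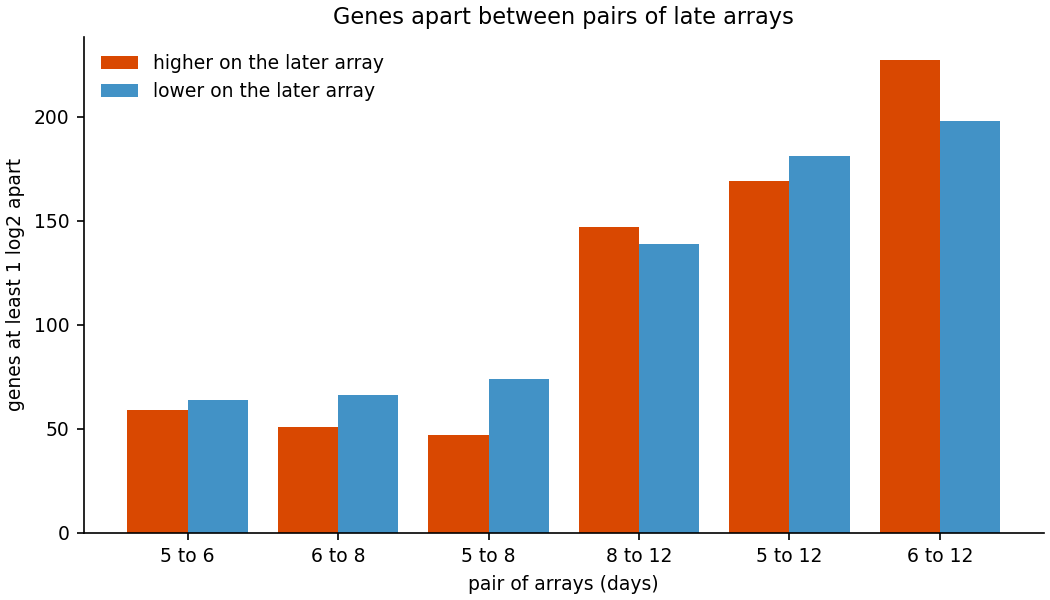
Bars count the genes at least 1 log2 apart between each pair of late arrays (x axis, days), higher (orange) or lower (blue) on the later array. Pairs within days 5 to 8 gave 47 to 74 genes per bar and pairs with day 12 gave 139 to 227.

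NT5E, the surface enzyme CD73 that makes adenosine from AMP, had the largest difference of the named genes. Its value was 4.65 at day 5, 5.04 at day 6, 5.42 at day 8 and 7.89 at day 12. The difference was 2.85 (95% confidence interval 2.18 to 3.53, adjusted p = 0.0534 in limma), and the day 12 value stood above all 9 other arrays, which ran from 4.27 to 5.67. The other 17 ectonucleotidases and adenosine receptors measured lay between -0.36 and 0.35. CCND1, cyclin D1, which activates CDK4 and CDK6 in G1, stood at 4.62, 4.44 and 5.17 and then at 6.62. Its difference was 1.88 (1.21 to 2.55, adjusted p = 0.0871 in limma), and day 12 was again the highest of the 10 arrays. For both genes day 8 was already the highest of the 3 earlier arrays.

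MMP13, a collagenase, stood at 5.21, 5.32 and 4.27 and then at 2.43. Its difference was -2.50 (95% confidence interval -3.43 to -1.57, adjusted p = 0.0975 in limma). MMP13 had been at 1.82 in untreated cells and at 3.66 to 5.17 on days 2 to 4, so that the day 12 value lay 0.62 above untreated cells. CD86, a co-stimulatory ligand for T cells, stood at 4.57, 4.78 and 3.95 and then 2.04, with 2.10 in untreated cells. The CD36 scavenger and fatty acid receptor stood at 4.02 to 4.53 on days 2 to 4, at 3.03, 3.37 and 3.00 on days 5, 6 and 8 and at 1.03 at day 12, a difference of -0.47 from untreated cells.

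**Figure D3:**
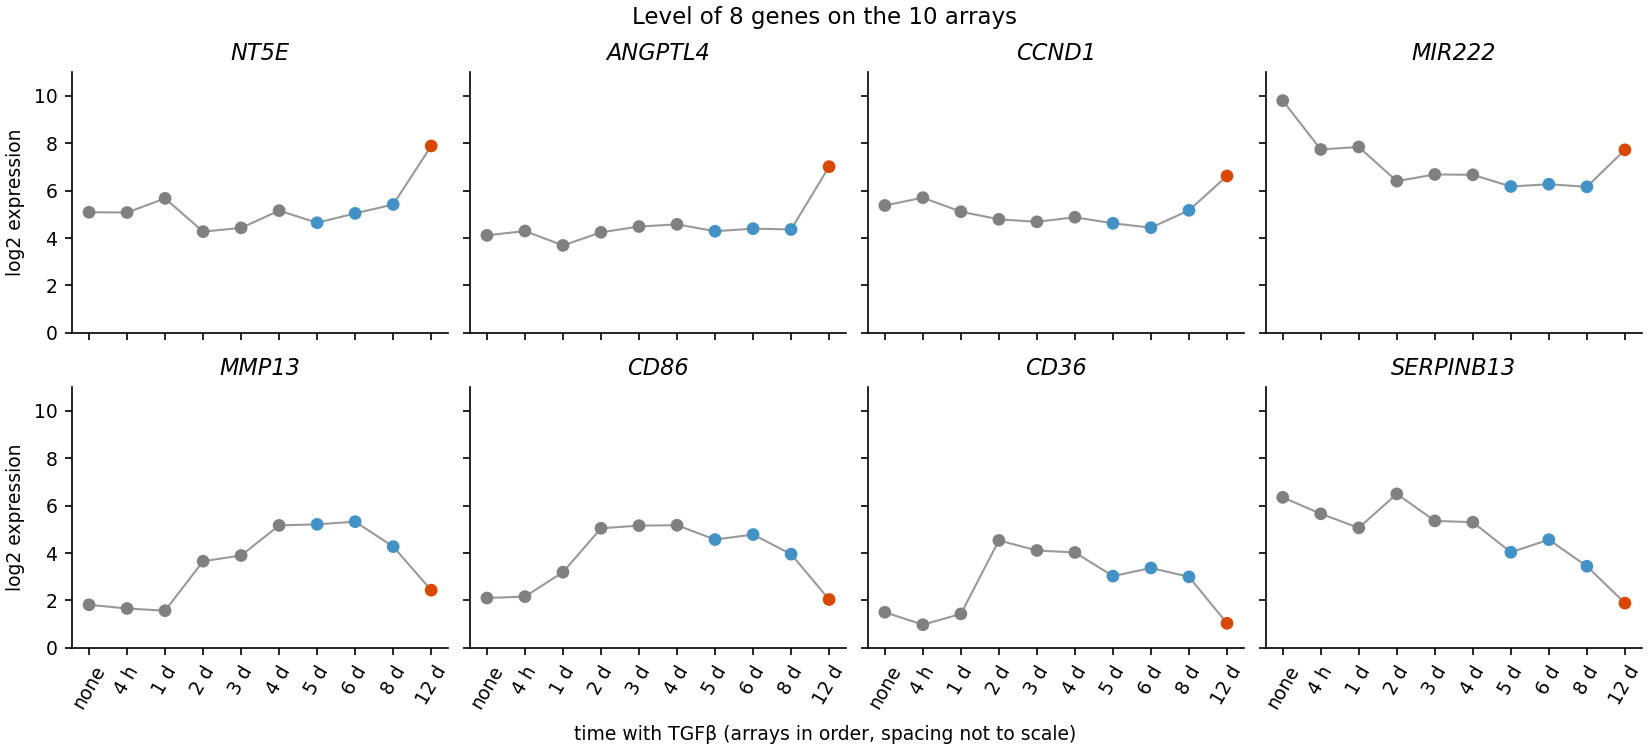
Log2 expression (y axis) of 8 genes on the 10 arrays in order of time (x axis, spacing not to scale), with days 5, 6 and 8 in blue and day 12 in orange. NT5E, ANGPTL4 and CCND1 reached their highest value at day 12, MMP13, CD86 and CD36 lay at day 12 within 0.62 of untreated cells, and SERPINB13 was at its lowest.

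Among secreted and surface proteins higher at day 12 was THBS1, thrombospondin-1, a matrix glycoprotein that can activate latent TGFβ. It stood at 6.82, 7.16 and 7.37 and then at 9.05, a difference of 1.93. Among 42 matrix glycoproteins and proteoglycans FBN1, the microfibril protein fibrillin-1, was the other one beyond the spread on the higher side, by 1.09, and the median of the list was 0.04. THBS1 had also been high at 4 h (8.87). PAPPA, a protease that frees insulin-like growth factors from their binding proteins, stood at 4.07, 4.09 and 4.88 and then at 6.26. The stanniocalcins are inhibitors of that protease. STC2 stood at 4.74, 4.63 and 4.98 and then at 6.69, and STC1 at 3.28, 3.07 and 3.19 and then at 4.24. All 3 genes were beyond the spread on the higher side. Among the 17 measured genes of IGF binding and insulin signalling PAPPA and STC1 were the 2 beyond the spread, with a list median of 0.07.

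Other members of the higher group were SRPX2, a secreted protein, which went from 3.81, 4.30 and 4.23 to 5.87, and MCTP1, a membrane protein with C2 domains, from 2.38, 2.62 and 2.89 to 4.52. TNFSF15, a TNF family cytokine, went from 3.98, 3.98 and 4.12 to 5.62. RNASE7, an antimicrobial ribonuclease of epithelia, went from 5.26, 5.43 and 5.30 to 6.92. The 3 earlier values of the last pair of genes were within 0.17 of each other. The long non-coding RNA CCAT1 stood at 4.24, 4.20 and 4.68 and then at 6.70, still below its 8.89 in untreated cells. The prostaglandin E synthase PTGES was higher by 1.44 and the prostaglandin transporter SLCO2A1 by 1.20, while PTGS2, the inducible cyclooxygenase, lay at -0.71 (6.80, 7.29 and 6.91, then 6.29).

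**Figure D4:**
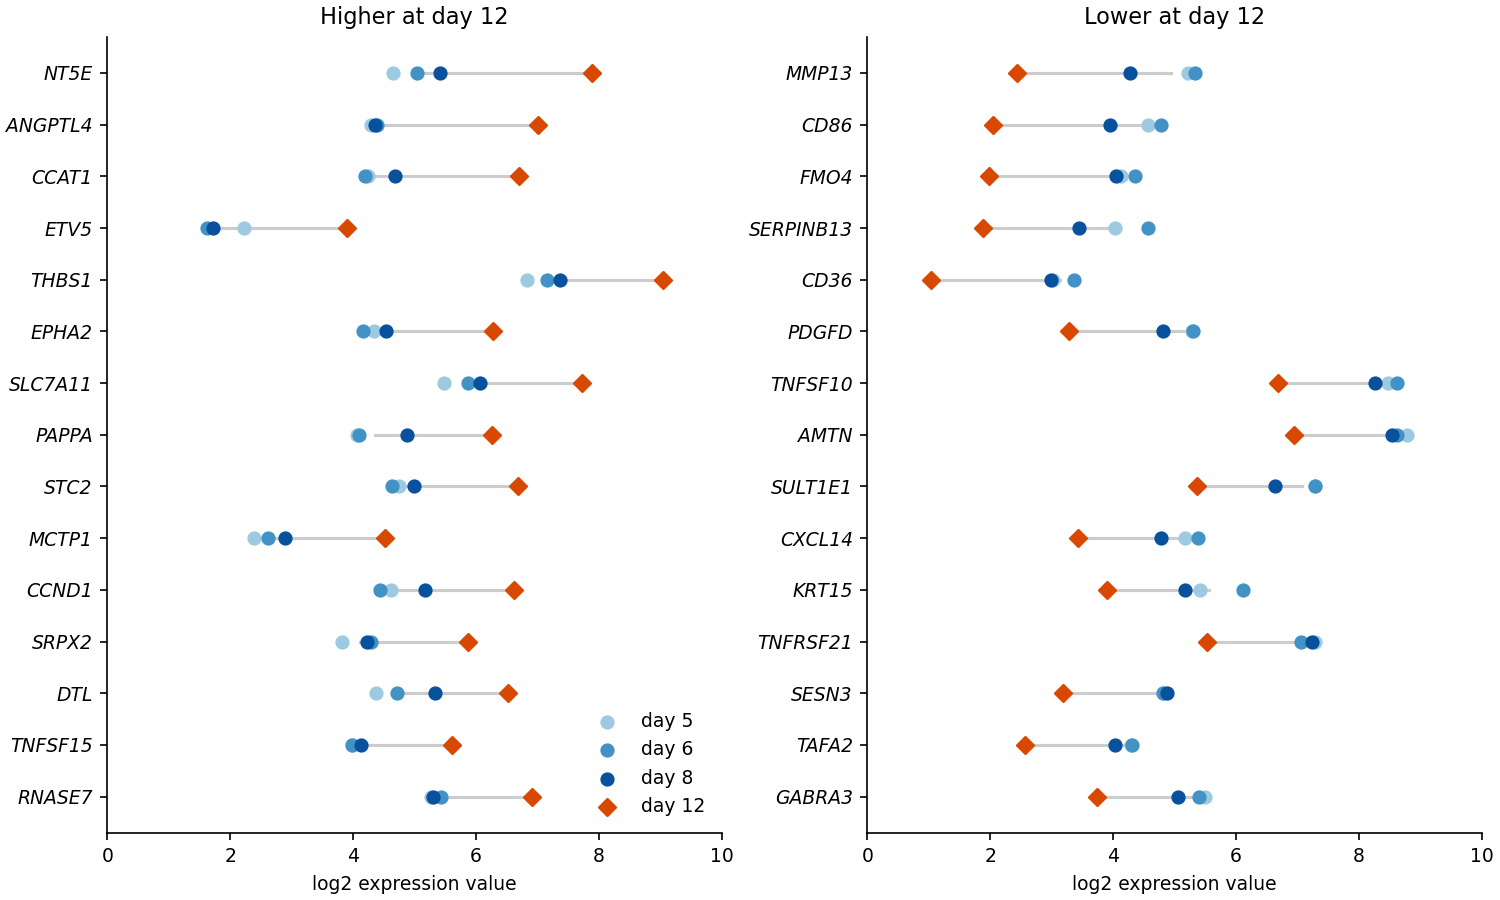
Log2 expression (x axis) of the 15 named genes with the largest differences in each direction at day 5, day 6, day 8 (blue circles) and day 12 (orange diamonds), with a line from day 12 to the mean of the other 3. The rule by which the genes were chosen places the diamond outside the circles in every row, and circles overlap where values are close.

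The list of MAPK feedback genes holds phosphatases and adaptors that restrain ERK signalling, beside ETS factors downstream of ERK and Eph receptors, which are not such inhibitors. Of 20 measured, 6 were beyond the spread on the higher side and 1 on the lower, 13 lay above all 3 earlier arrays and 5 below, and the list median was 0.35. Over all genes the median was 0.0009, 29% lay above all 3 earlier arrays and 28% below. These shares of all genes are the background for the percentages of the lists below. ETV5, an ETS factor downstream of ERK, stood at 2.22, 1.62 and 1.73 and then at 3.90, a difference of 2.04. EPHA2, an Eph receptor tyrosine kinase, stood at 4.34, 4.16 and 4.54 and then at 6.28. DUSP4, a nuclear phosphatase of MAP kinases, stood at 2.93, 2.69 and 2.69 and then at 4.28. In all 3 the day 12 value stood above each array of days 5 to 8, as the rule for the spread requires. SPRY4 (1.33), PHLDA1 (1.06) and SPRED1 (1.01) completed the higher group, of which SPRY4 and SPRED1 are inhibitors of the pathway upstream of ERK. DUSP6, the cytoplasmic ERK phosphatase, lay above days 5 to 8 by less than the limit of 1 (1.92, 2.44 and 2.39, then 3.13). EPHA4, the member on the lower side, stood at 7.01, 7.36 and 6.66 and then at 5.54.

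ATF4 is the transcription factor of the integrated stress response, and it activates genes for amino acid synthesis, import and redox balance. Of 41 genes of amino acid stress and the unfolded protein response, 32 (78%) lay above all 3 earlier arrays and 5 (12.2%) below. Beyond the spread were 7 on the higher side and 0 on the lower, and the median difference was 0.36. SLC7A11, the cystine importer, stood at 5.47, 5.88 and 6.07 and then at 7.73. PSAT1 and PHGDH, enzymes of serine synthesis, went from 6.67, 6.92 and 7.55 to 8.60 and from 4.82, 4.90 and 5.26 to 6.24. ASNS, asparagine synthetase, went from 5.26, 5.41 and 5.36 to 6.53. These values stood above each of the earlier 3 by at least 0.98. GDF15, a stress cytokine that also stands among the p53 targets, was higher by 1.57, CHAC1, which degrades glutathione, by 1.17, and STC2, given above, by 1.90. In untreated cells SLC7A11 (8.66), PSAT1 (8.82) and ASNS (8.26) lay above their day 12 values, and PHGDH was at 6.20. Day 12 minus untreated was -0.11 for STC2, 0.64 for GDF15 and 1.30 for CHAC1. The median level of the list was 5.97 in untreated cells, 4.82, 4.89 and 5.24 at days 5, 6 and 8, and 6.12 at day 12. ATF4 itself was at 6.64, 6.48 and 6.61 and then at 6.90. The chaperones and folding factors of the endoplasmic reticulum lay nearer to no difference, with HSPA5 at 0.19, HSP90B1 at -0.12 and MANF, CRELD2 and SDF2L1 at -0.22 to -0.15.

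Of the 20 cytosolic aminoacyl-tRNA synthetases, which charge tRNAs with amino acids, 12 (60%) lay above all 3 earlier arrays and 4 (20%) below. The median was 0.42 and 0 were beyond the spread. MARS1 stood at 6.37, 6.44 and 6.73 and then at 7.51. YARS1 stood at 5.70, 5.82 and 5.84 and then at 6.71. In untreated cells MARS1 was at 7.61 and YARS1 at 6.64.

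The ATF4 response element of promoters was searched because most genes of this list lay on one side, a choice made after their values were seen. The letters TGATGNAA were looked for on both strands from 250 bases before to 50 after the start of each gene in the RefSeq table of GRCh38.p14. They occurred in 1217 of 27305 genes (4.46%), in 8 of 35 genes of the ATF4 list with a window (22.9%) and in 7 of 16 synthetases with one (43.8%). Of the 7 list members beyond the spread, 6 had a window and 2 of those a match. These, in ASNS and CHAC1, are shown with the match in capitals, 5′ to 3′ on the strand of the gene. The match began 68 bases before the start in ASNS and 209 bases before it in CHAC1, where it reads on the opposite strand. The stretches are chr7:97872444-97872501 (minus strand) and chr15:40953237-40953294 (plus strand). A match is a description of the letters and not of binding. The ATF4 list was drawn up around that factor and related stress genes, so its share follows from its membership. Both list shares were counted whatever the day 12 value of a member, and they do not bear on day 12.
ASNS: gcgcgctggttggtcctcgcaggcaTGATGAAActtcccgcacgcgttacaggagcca
CHAC1: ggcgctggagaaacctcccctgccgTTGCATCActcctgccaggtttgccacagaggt

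The genes of DNA replication are transcribed by E2F factors as cells enter S phase. Of 37 measured, 29 (78.4%) lay above all 3 earlier arrays and 0 below, and the median difference was 0.37. CDC6, which loads the replicative helicase, stood at 2.25, 1.91 and 2.60 and then at 3.83. MCM10, which helps to start that helicase, stood at 2.03, 2.20 and 2.36 and then at 3.60. TYMS, thymidylate synthase, stood at 3.80, 4.06 and 4.26 and then at 5.13. In MCM10 and TYMS the values at days 5, 6 and 8 were in ascending order, so that part of the distance to day 12 lay within the earlier arrays. RRM2, a subunit of ribonucleotide reductase, showed this most (4.72, 5.52 and 6.05, then 6.46) and was not beyond the spread. DTL, a substrate receptor of a ubiquitin ligase that acts in S phase, stood at 4.37, 4.71 and 5.34 and then at 6.52, and E2F7, HELLS and CLSPN were beyond the spread at 1.37, 1.44 and 1.24.

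Of 18 G1 cyclins, kinases and their inhibitors, 10 (55.6%) lay above the 3 earlier arrays and 2 (11.1%) below. CCND1 and CCNE2 were the 2 beyond the spread. CCNE2, cyclin E2, stood at 1.83, 1.92 and 1.74 and then at 3.29. The inhibitor CDKN1A lay at 0.34 and CDKN1B at -0.08. Of 36 genes of G2 and mitosis 13 (36.1%) lay above the earlier arrays, against 29% of all genes. In that list 0 lay below, against 28% of all genes, and 0 beyond the spread, with a median of 0.18. Of 25 p53 targets 15 (60%) lay above and 4 (16%) below, with a median of 0.28 and GDF15 alone beyond the spread.

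**Figure D5:**
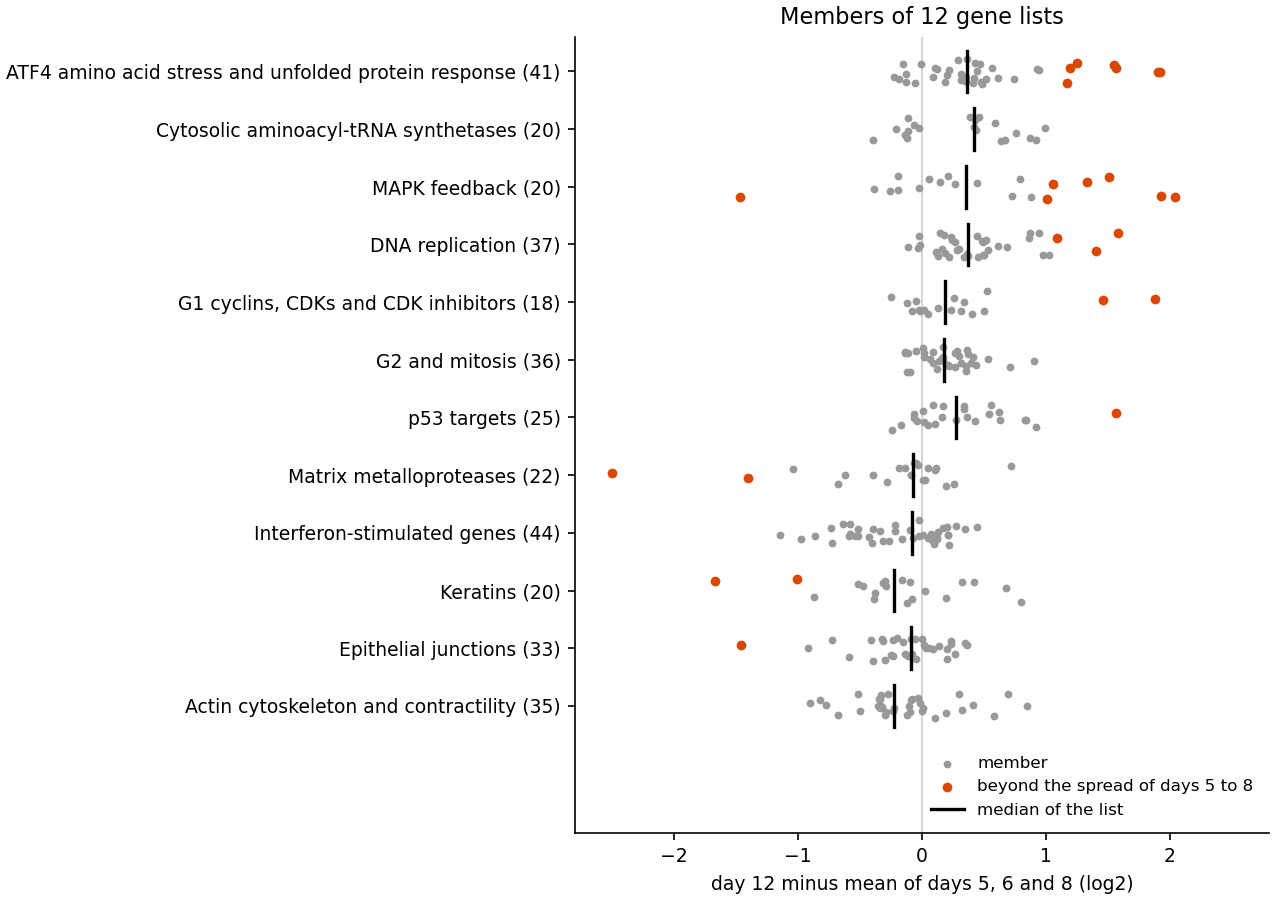
Each point is a measured member of 1 of 12 gene lists (number in brackets) at its difference between day 12 and the mean of days 5, 6 and 8 (x axis, log2), with members beyond the spread in orange and the list median as a bar. The medians of the ATF4, synthetase, MAPK feedback and DNA replication lists lay at 0.35 to 0.42 and those of keratins and actin cytoskeleton at -0.23 to -0.22.

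On the lower side, the matrix metalloproteases, which cut collagens and other matrix, held MMP13 and MMP7. MMP7, matrilysin, stood at 8.06, 7.94 and 7.87 and then at 6.56. Of the 22 measured, 10 (45.5%) lay below the 3 earlier arrays and 3 (13.6%) above, and the median was -0.08. MMP12 (4.65, 5.18 and 4.11, then 3.61) lay below its earlier values and within the limit of the spread, MMP9 lay at 0.72, and MMP1, MMP3 and MMP14 lay between -0.07 and -0.03. Among 11 inhibitors of matrix proteases and members of the plasminogen system, SERPINE2, a thrombin and plasminogen activator inhibitor, was beyond the spread on the higher side (a difference of 1.09, to 6.70 at day 12). AMTN, an enamel matrix protein, had gone from 2.08 in untreated cells to 8.78, 8.61 and 8.53 at days 5, 6 and 8. At day 12 it stood at 6.94, a difference of -1.71, and still above untreated cells.

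Of 24 genes of the cornified envelope and epithelial defence 11 (45.8%) lay below the arrays of days 5 to 8 and 5 (20.8%) above. The median was -0.19 and 0 were beyond the spread. Some other genes of stratified epithelium were beyond it on the lower side, whereas RNASE7, given above, was on the higher. SERPINB13, a serpin of keratinocytes, stood at 4.03, 4.56 and 3.44 and then at 1.89, against 6.35 in untreated cells. KRT15, a basal keratin, stood at 5.42, 6.11 and 5.16 and then at 3.89, against 7.07 in untreated cells. KRT10, a suprabasal keratin, stood at 5.59, 5.47 and 5.09 and then at 4.38, against 7.43 in untreated cells. All 3 had their lowest value of the earlier group at day 8. Of 20 keratins 9 (45%) lay below the earlier arrays and 3 (15%) above, with a median of -0.22. Of 33 genes of epithelial junctions 17 (51.5%) lay below and 4 (12.1%) above. CLDN4, a tight junction claudin, was the one beyond the spread (3.86, 4.23 and 4.10, then 2.60), while CDH1, E-cadherin, lay at -0.20. Of 22 EMT transcription factors 10 (45.5%) lay below and 5 (22.7%) above with 0 beyond the spread. TP63, the regulator of basal epithelium, was the furthest (7.59, 7.81 and 7.59, then 6.73).

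Contractile genes that TGFβ raises lay lower as well, without leaving the limit of 1. Of 35 genes of the actin cytoskeleton 19 (54.3%) lay below all 3 earlier arrays and 7 (20%) above. The median was -0.23 and 0 were beyond the spread. MYL9, a myosin light chain, stood at 7.91, 7.86 and 7.98 and then at 7.09. TAGLN, transgelin, stood at 7.28, 7.22 and 7.42 and then at 6.53. Both were still above untreated cells (4.89 and 4.38). Some other EMT genes differed less. FN1, fibronectin, lay at -0.06, VIM, vimentin, at -0.29 and CDH2, N-cadherin, at 0.45. Of 41 collagen chains 9 (22%) lay above the earlier arrays and 8 (19.5%) below. Of 20 integrins 9 (45%) lay above and 8 (40%) below, with differences from -1.09 to 0.74. In both lists 0 were beyond the spread, against 0.42% higher and 0.441% lower over all genes. Of 29 genes of TGFβ ligands, receptors and feedback 17 (58.6%) lay above and 6 (20.7%) below. The list median was 0.11, differences ran from -0.66 to 0.84, and 0 were beyond the spread. On the higher side were the receptor TGFBR2 (8.77, 8.94 and 8.93, then 9.58) and ID1 (5.42, 5.45 and 5.36, then 6.25).

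Signals of immunity and cell death lay on both sides. Of 27 apoptosis regulators 13 (48.1%) lay above the arrays of days 5 to 8 and 7 (25.9%) below, with a median of 0.16. TNFSF10 alone was beyond the spread, on the lower side. TNFSF10, the death ligand TRAIL, stood at 8.47, 8.62 and 8.26 and then at 6.69, against 6.59 in untreated cells. TNFRSF21, a death receptor of the TNF family, stood at 7.28, 7.06 and 7.23 and then at 5.52. CXCL14, an epithelial chemokine, stood at 5.17, 5.38 and 4.78 and then at 3.42, its lowest value of the 10 arrays, and SAA2, an acute phase protein, at 6.63, 6.41 and 5.87 and then at 4.80. Of 33 interleukins and chemokines CXCL14 and SAA2 were the 2 beyond the spread. In that list 11 (33.3%) lay above and 10 (30.3%) below, near the 29% and 28% of all genes, with a median of 0.01. PPBP, a platelet chemokine outside that list, stood at 2.53, 2.60 and 2.34 and then at 3.86. Of 44 interferon-stimulated genes 20 (45.5%) lay below the earlier arrays and 10 (22.7%) above, with a median of -0.08 and 0 beyond the spread. The guanylate-binding proteins GBP1, GBP2 and GBP6, induced by interferon gamma, are not in that list. They were beyond the spread on the lower side and are given at the end, beside other members of that family.

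SESN3, a sestrin transcribed by FOXO factors, stood at 4.82, 4.82 and 4.87 and then at 3.18. PIK3IP1, an inhibitor of PI3 kinase that FOXO also activates, had a difference of -1.08, and these were the 2 beyond the spread of 17 genes of FOXO and growth factor withdrawal. PDGFD, a platelet-derived growth factor, stood at 5.29, 5.30 and 4.81 and then at 3.28, and TAFA2, a secreted chemokine-like protein, at 4.28, 4.31 and 4.02 and then at 2.56. Of the drug and steroid metabolism enzymes, FMO4, a flavin monooxygenase, stood at 4.13, 4.36 and 4.05 and then at 1.98, and SULT1E1, the oestrogen sulfotransferase, at 7.29, 7.29 and 6.63 and then at 5.36. CA12, a carbonic anhydrase, had a difference of -1.42. It and ANGPTL4 stand together among 22 hypoxia targets, of which 11 (50%) lay below the earlier arrays and 6 (27.3%) above.

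Lipid genes lay on both sides. Of 18 genes of PPAR targets and lipid handling ANGPTL4 was beyond the spread above and CD36 below, with a median of -0.01. The receptor PPARA itself, a nuclear receptor for fatty acids, stood at 4.13, 3.63 and 3.95 and then at 4.91. The secreted lipase LIPG was higher by 1.29 from 3 earlier values of 4.64, 4.66 and 4.66, and LCAT, which esterifies cholesterol on lipoproteins, by 1.17. Of 28 genes of cholesterol and fatty acid synthesis 15 (53.6%) lay above the earlier arrays and 3 (10.7%) below. The median was 0.21 and 0 were beyond the spread. Of 25 NRF2 antioxidant targets SLC7A11 and the exporter ABCC3 (1.31) were beyond the spread above and AKR1C3 (-1.11), an aldo-keto reductase, below, and the median was -0.11.

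Further genes beyond the spread, picked after their values were seen, extend the groups given above. EIF4EBP1, a repressor of cap-dependent translation, stood at 3.88, 3.36 and 3.80 and then at 5.12, and the related EIF4EBP3 was higher by 1.02. HMGA2, a chromatin protein of embryonic and mesenchymal cells, stood at 1.72, 2.06 and 1.61 and then at 3.13. LEFTY1, an inhibitor of Nodal in the TGFβ family, stood at 1.80, 1.78 and 1.81 and then at 3.16. HMGA2 and LEFTY1 were at low values on the earlier arrays, below the median gene. Among the genes given above this also held for ETV5, DUSP4, SPRY4, MCTP1, PPBP, CCNE2, CDC6, MCM10 and CLSPN. Of the lower genes given above, MMP13, CD86, FMO4, SERPINB13, CD36, TAFA2 and CLDN4 ended below the median gene at day 12. The metalloproteases ADAM19 (1.30) and ADAMTS1 (1.25), the phospholipase PLCB4 (1.46) and the proteoglycan core protein SRGN (1.58) were higher as well. ADAMTS1 also lay below the median gene on the earlier arrays, and SRGN did at days 5 and 6 (2.55 and 2.63). TNFRSF10C, a decoy receptor for TRAIL, stood at 7.72, 7.85 and 7.37 and then at 8.70, while the ligand TNFSF10 lay lower.

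On the lower side the epithelial transcription factors EHF and GRHL3 stood at 5.91, 5.81 and 5.76 and at 4.70, 5.08 and 4.61, and then at 4.61 and 3.77. IL1R1, the receptor of interleukin-1, stood at 6.36, 6.30 and 6.25 and then at 5.21, and the kinase MAP3K8 at 5.32, 5.14 and 4.83 and then at 3.75. In each of these genes day 12 lay below the arrays of days 5 to 8, which follows from their choice by the spread. MME, the membrane metallopeptidase CD10, stood at 8.58, 8.18 and 8.19 and then at 7.10, NPNT, an integrin ligand of basement membranes, at 5.43, 5.63 and 5.43 and then at 4.02. The differences were -1.46 for SELENOP, a selenium carrier, -1.37 for MAOA, a monoamine oxidase, and -1.23 for the growth hormone receptor GHR. GHR ended below the median gene at day 12. Further differences follow. They were -1.15 and -1.04 for the glutathione transferases GSTM4 and GSTA4, and -1.52 and -1.01 for HSD17B6 and SRD5A3, enzymes of steroid and polyprenol metabolism.

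Genes for microRNAs on the array report the precursor or its primary transcript and not the mature form, and were chosen after their values were seen. MIR222 stood at 6.18, 6.27 and 6.16 and then at 7.72, a difference of 1.52 (adjusted p = 0.0534 in limma). Its neighbour MIR221 stood at 5.76, 6.01 and 5.81 and then at 6.81, a difference of 0.95. In untreated cells these genes were at 9.80 and 8.00, so that day 12 lay between the untreated and the late level. The pair lies on the minus strand of the X chromosome, and the mature 3p products share the seed, bases 2 to 8, shown in capitals in the RefSeq sequences of GRCh38.p14 (chrX:45747036-45747056 and chrX:45746180-45746202). They are printed because a shared seed is what joins these genes.
hsa-miR-222-3p: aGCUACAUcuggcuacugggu
hsa-miR-221-3p: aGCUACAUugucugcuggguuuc

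Day 12 was also placed beside untreated cells. Of the 105 lower genes, 64 had been at least 1 log2 above untreated cells at days 5 to 8 and 6 at least 1 below. At day 12, 31 of these 70 lay within 0.5 of untreated cells. Of the 100 higher genes, 31 had been below untreated cells by at least 1 and 7 above, and 18 of these 38 lay within 0.5 at day 12. The remaining 62 higher genes had been within 1 of untreated cells, and 46 of the 100 stood at least 1 above them at day 12. Over all 23786 genes, 1410 had been at least 1 above untreated cells at days 5 to 8 and 972 at least 1 below. Of these 2382 genes, 140 lay within 0.5 at day 12, and 64.5% lay nearer to untreated cells than at days 5 to 8. At day 12, 1350 of all genes stood at least 1 above untreated cells. Day 12 was the highest of the 10 arrays for 66 of the 100 higher genes (8.49% of all genes) and the lowest for 44 of the 105 lower ones (9.93% of all genes). The genes were chosen for a large difference at day 12, which by itself makes an extreme there, or a value nearer to untreated cells, more frequent, so all counts against untreated cells and the other arrays only describe the groups. Day 8 was the highest of the 3 earlier arrays in 52 of the 100 higher genes and the lowest in 63 of the 105 lower ones, against 32.6% of all genes each way.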

How the data were processed

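RNA of MCF10A cells was hybridised to whole-transcript arrays, 1 for each of 10 conditions. The authors deposited log2 expression values made by RMA (background correction, quantile normalization between arrays, median polish), with 1 value per Entrez gene. They were used as deposited, with no filter, and precision is limited by how few arrays there are. Entrez identifiers were matched to symbols in the NCBI genes of GRCh38.p14 (23093 matched and 693 did not), and microRNA and promoter sequences from RefSeq tables of that build.

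Day 12 minus the mean of days 5, 6 and 8 was fitted on these 4 arrays in R 4.3.3 with limma 3.58.1 (lmFit, eBayes), with 2 residual degrees of freedom, 4.84 from the prior, a median residual SD of 0.141 and Benjamini-Hochberg adjustment over all genes. The step was tested on simulated data. Genes named were the 15 largest differences in each direction, the call first and then genes beyond the spread with a level above the array median, loci without a proper name left out, beside NT5E, ANGPTL4, CCND1, MMP13 and up to 4 members of each list described. Genes given outside this rule were chosen after their values were seen. The 43 lists were described by counts and medians, and those not printed had at most 3 members beyond the spread. A gene may stand in several lists. The comparison, its members and the lists were chosen with earlier results of these data known. P-values measure the spread between these arrays, which are not replicates of 1 condition. Figures were drawn with matplotlib 3.10.9. Some genes of the lists are not reported here.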

Additional observations from a re-analysis of the deposited data

How the results depend on the processing

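The number of genes called depended on the setting. Against 1 higher and 0 lower, limma called 3 and 4 with all 10 arrays in 4 windows, 4 and 6 with the 9 treated arrays in 4 windows, 39 and 55 with a trended and robust prior, 22 and 31 with arrays centred on their medians, 24 and 42 among genes above the median gene, and 6 and 2 with a regression on time over the 4 arrays. Leaving out 1 array gave 0 to 45 higher and 0 to 47 lower. With a trended ordinary prior it called 32 and 51 and with a robust prior without trend 1 and 0, both chosen after seeing the data. ANGPTL4 was called in all of these except the regression (adjusted p = 0.151 in limma), without day 6 and without day 8. All genes called elsewhere were beyond the spread, except 2 of 8 in the regression and 6 of 92 without day 5. The cause of these moves was not tested. With a limit of 1.5 in place of 1, 22 genes were beyond the spread higher and 25 lower, and leaving out 1 array gave 107 to 138 and 114 to 137. For the 30 named genes 0 alternatives turned the direction, which says little about them. They were chosen with day 12 outside all 3 earlier arrays, so leaving out 1 array could not turn it. The windows and the priors left the difference itself unchanged. Among the list medians under alternatives, 22 changed sign. No paired analysis was possible because each time had 1 array.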

Other observations

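Some gene families outside the lists lay on one side at day 12. They were picked after their values were seen and are given as descriptions. Of 16 protocadherin beta genes, adhesion proteins of 1 cluster on chromosome 5, 14 lay below all 3 arrays of days 5 to 8 and 1 above, against 28% and 29% of all genes, with a median difference of -0.52. PCDHB14 stood at 7.22, 7.19 and 7.12 and then at 5.99. The coding sequences of this family are much alike, so that probes may be shared between members and the 16 are not independent measurements. Of 7 guanylate-binding proteins, GTPases induced by interferon gamma, GBP1 stood at 8.05, 8.21 and 7.75 and then at 6.46, and GBP2 (-1.23) and GBP6 (-1.18) were beyond the spread on the same side, while GBP4 (-0.01) and GBP5 (0.15) were not.

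GABRA3 and GABRQ, subunits of the GABA-A receptor that lie near each other on the X chromosome, stood at 5.49, 5.40 and 5.06 and at 5.07, 6.04 and 5.71, and at day 12 at 3.74 and 4.04. In untreated cells they were at 1.84 and 1.74. GABRE of the same cluster stood at 8.25, 8.16 and 8.03 and then at 7.37. Of the Eph receptors, EPHB2 was beyond the spread on the higher side with EPHA2 (4.61, 4.60 and 5.19, then 6.37), whereas EPHA4 and the ligand EFNB2 (6.75, 6.94 and 6.66, then 5.74) were on the lower. The semaphorins SEMA6A and SEMA6D, guidance cues that span the membrane, had differences of -1.57 and -1.52. None of these genes passed the limma test at an adjusted p of at most 0.05.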
